A study of Caenorhabditis elegans with 2 samples.

Results

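The regions described here were strong in 1 replicate of a chromatin immunoprecipitation sequencing (ChIP-seq) experiment and had no counterpart in the other. Each replicate came with a list of 30000 candidate regions, and a region had a counterpart when it overlapped any of the 30000 regions of the other list by at least 1 bp. Members were chosen by signal, a value per region deposited by the authors whose scale is not stated. Each replicate gave the 1000 strongest regions among those without a counterpart, which makes 2000 members out of 60000 regions. They ranked 69 to 2242 in the list of replicate 1 and 54 to 2199 in that of replicate 2. Under a stricter reading, in which a member must also be among the best 1000 of its list, replicate 1 had 308 members and replicate 2 had 349.

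The immunoprecipitated protein was NHR-12, a nuclear hormone receptor of the nematode Caenorhabditis elegans, carrying an enhanced green fluorescent protein (eGFP) tag. Both replicates were whole mixed-stage embryos of strain OP318 with males and females pooled, which carries the integrated transgene wgIs318 with tagged nhr-12 in an unc-119(ed3) background, a mutation on chromosome III commonly used as the marker that such transgenes rescue. The labels give 2 biological replicates of this 1 group and a fragment size range of 150 to 350 bp, and do not say what was separate about the replicates. Per the description files, both lists were made against the same control file, and which promoter drives the tagged receptor is not given in the sources used here.

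Nuclear hormone receptors are transcription factors with a zinc finger DNA-binding domain and a domain that can hold a small lipophilic ligand, and the family is greatly expanded in nematodes. Many bind variants of the word AGGTCA. In ChIP-seq of worm and other animal cells, open promoters of active genes and genes read by RNA polymerase III often give signal for many unrelated factors. A region seen with 1 biological replicate and not with another is ordinarily set aside when peaks are called for reproducibility.

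Sequence at the summit, the point of largest signal within a region, is shown for the 3 strongest members of each replicate that touched no annotated untranslated region, on 5 of the 6 chromosomes. It is followed, for comparison, by that of a region with a counterpart at the promoter of the ataxin-2 gene atx-2, which ranked 1 in replicate 1 and 3 in replicate 2. Each is the plus strand of ce11, with 50 bases on each side of the summit, taken from the RefSeq copy of the assembly. Capitals mark matches, on either strand, to 10 motifs searched within 100 bp of every summit. The words found here were GAGAGA in all windows of replicate 1 members, CTGCGTCT overlapping it at F13D11.14, and at atx-2 GCGCGC in both replicates with TTTCAG in replicate 1.
Replicate 1 member in pqn-41, chrIII:1921311-1921411: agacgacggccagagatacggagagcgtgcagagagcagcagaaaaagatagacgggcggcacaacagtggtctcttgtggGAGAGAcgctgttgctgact
Replicate 1 member at F13D11.14, chrX:5818344-5818444: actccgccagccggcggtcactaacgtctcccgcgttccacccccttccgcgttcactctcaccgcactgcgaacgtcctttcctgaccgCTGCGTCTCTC
Replicate 1 member at cel-mir-53, chrIV:11027713-11027813: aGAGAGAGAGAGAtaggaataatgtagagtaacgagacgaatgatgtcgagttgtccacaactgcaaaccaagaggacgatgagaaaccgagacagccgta
Replicate 2 member in ztf-29, chrIII:11561349-11561449: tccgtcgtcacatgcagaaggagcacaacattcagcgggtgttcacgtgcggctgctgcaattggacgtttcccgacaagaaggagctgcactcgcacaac
Replicate 2 member at a tRNA gene in inft-2, chrV:13003480-13003580: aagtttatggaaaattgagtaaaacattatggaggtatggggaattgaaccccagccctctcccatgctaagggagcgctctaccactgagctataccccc
Replicate 2 member in flcn-1, chrII:6939971-6940071: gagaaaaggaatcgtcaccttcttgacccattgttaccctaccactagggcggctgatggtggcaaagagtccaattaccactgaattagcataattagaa
Replicate 1 region with a counterpart at atx-2, chrIII:10461258-10461358: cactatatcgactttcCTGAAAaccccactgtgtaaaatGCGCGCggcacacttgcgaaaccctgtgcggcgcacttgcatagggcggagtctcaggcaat
Replicate 2 region with a counterpart at atx-2, chrIII:10461276-10461376: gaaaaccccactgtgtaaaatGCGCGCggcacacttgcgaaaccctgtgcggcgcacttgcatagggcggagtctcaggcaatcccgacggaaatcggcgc
The windows of the 3 replicate 2 members held none of the 10 motifs in the exact forms searched. The 6 member windows had GC contents of 56.4% in pqn-41, 65.3% at F13D11.14, 45.5% at cel-mir-53, 56.4% in ztf-29, 47.5% at the tRNA gene and 44.6% in flcn-1.

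A region without a counterpart was the common case in these lists. In replicate 1, 19925 of 30000 regions (66.4%) overlapped nothing in the list of replicate 2, and in replicate 2, 19880 of 30000 (66.3%) overlapped nothing in that of replicate 1. The members are the strong end of these. Both lists end at a count of 30000, with a lowest signal of 4.84 in replicate 1 and 3.93 in replicate 2, so a weaker region of the other replicate at the same place would not be listed. Each list covered 10.9% of the genome.

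The share without a counterpart climbed steeply down the ranks. Among ranks 1 to 250, 22 regions of replicate 1 (8.80%, exact 95% interval 5.60 to 13.02) and 38 of replicate 2 (15.2%, 10.99 to 20.3) had none. Between ranks 501 and 1000 it was 41.4% in replicate 1 and 45.2% in replicate 2, and between 16001 and 30000 it was 70.8% and 70.6%. The intervals here and below cover counting error over regions only. With 1 library behind each set of members, no test over samples could be made.

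**Figure D1:**
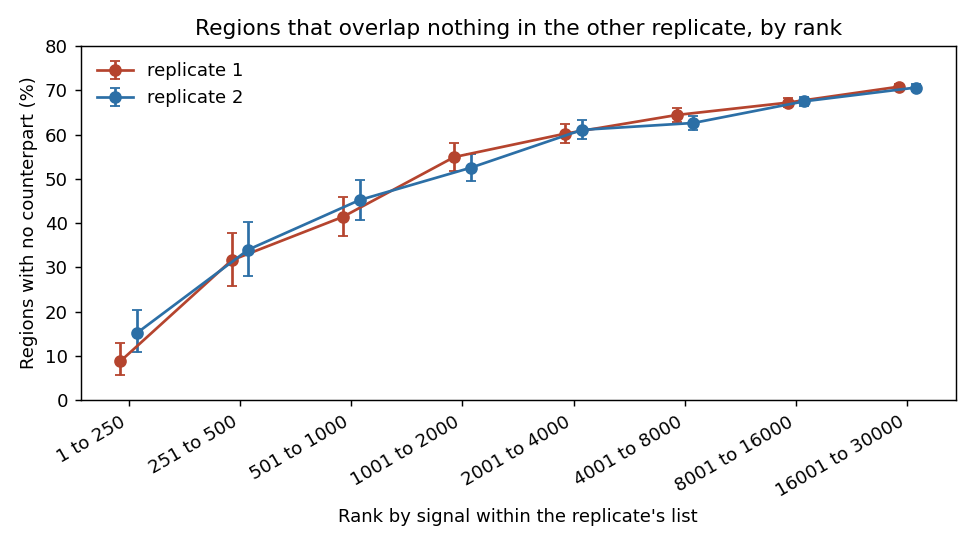
Share of regions with no overlapping region in the other replicate's list (%) by rank of signal within the list, for replicate 1 and replicate 2. Points are shares and bars their exact 95% intervals. Both curves climb from 8.80% and 15.2% at ranks 1 to 250 to 70.8% and 70.6% at ranks 16001 to 30000.

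Signal among the members ran from 27.8 to 11.7 in replicate 1, with a median of 13.03, and from 24.6 to 9.96 in replicate 2, with a median of 11.1. The scales of the lists were not compared. At the edge of the choice, the last member of replicate 1 (signal 11.72, rank 2242, nearest to the collagen gene col-129) was followed by a region of signal 11.72 at rank 2243, nearest to linc-143. In replicate 2 the last member had a signal of 9.96 at rank 2199 and the first region outside 9.958 at rank 2200. By the authors' −log10 q, 10 members of replicate 1 (1%) and 96 of replicate 2 (9.6%) reached 2. Over the whole lists, 187 of 30000 regions in replicate 1 (0.623%) and 437 of 30000 in replicate 2 (1.46%) did, so the lists differed in the same direction. Members were set beside the regions with a counterpart over the same span of ranks, called rank-matched regions below (1174 in replicate 1, 1146 in replicate 2), of which 109 and 288 reached 2. These still leaned to stronger regions, since the median signal was 13.03 for members and 14.1 for rank-matched regions in replicate 1, and 11.1 and 11.9 in replicate 2.

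The 2 replicates were also called together in a pooled list of 28574 candidates, to which each contributes its own reads. In replicate 1, 956 members overlapped a pooled candidate (95.6%, 94.1 to 96.8), against 847 in replicate 2 (84.7%, 82.3 to 86.9). The shares were 99.2% and 99.04% for rank-matched regions and 49.4% and 40.7% for all regions without a counterpart. Over the whole lists they were 63.1% and 57.4%, so replicate 1 was also the higher there. The candidates overlapped had median ranks of 5434 for replicate 1 members and 7318 for replicate 2 members, against 921 and 1131 for the rank-matched regions. Among the thresholded peaks, which the authors called for reproducibility, 1 overlapped a member. That region of replicate 1 (chrI:1874044-1874419, signal 20.6, rank 188) lay in a coding exon of tub-2, a tubby-related gene, 216 bp from the nearest replicate 2 region, and the pooled candidate there ranked 246. No member of replicate 2 overlapped a peak, while 189 of its 1146 rank-matched regions did. The rule itself keeps members out of peaks called for reproducibility, so this contrast says nothing further about them. Of all regions without a counterpart, 1 of 19925 in replicate 1 and 1 of 19880 in replicate 2 overlapped a peak.

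Members lay about as often near gene starts as an ordinary candidate did. A start window reached from 1000 bp before an annotated gene start of any kind to 200 bp past it. In replicate 1 it held 380 member summits (38.0%, 34.98 to 41.1), against 54.4% (51.5 to 57.3) of rank-matched regions and 38.7% of the whole list. In replicate 2 the window held 376 member summits (37.6%, 34.6 to 40.7), against 54.9% (51.95 to 57.8) of rank-matched regions and 37.5% of the whole list. For starts of protein-coding genes the shares were 25.3% of members, 36.5% of rank-matched regions and 24.95% of the list in replicate 1. The same 3 shares were 24.2%, 36.1% and 24.02% in replicate 2. In a window reaching from 500 bp before the start to 100 bp past it, members stood at 25.7% in replicate 1 and 21.4% in replicate 2, against 41.7% and 43.4% of rank-matched regions. Among members that reached 2 in −log10 q, 80% of 10 in replicate 1 (44.4 to 97.5) and 37.5% of 96 in replicate 2 (27.8 to 47.97) lay in a start window.

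Among regions without a counterpart the start-window share hardly moved with rank below the strongest bin. From rank 251 on it stayed between 35.4% and 40.6% in replicate 1, and in replicate 2 it was between 34.01% and 42.5%. The strongest bin of replicate 1 stood apart, with 15 of 22 regions in a start window (68.2%, 45.1 to 86.1), while that of replicate 2 had 13 of 38 (34.2%, 19.6 to 51.4). Regions with a counterpart showed a slope: 77.6% at ranks 1 to 250 and 38.96% at ranks 16001 to 30000 in replicate 1, and 75.5% and 39.2% in replicate 2.

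**Figure D2:**
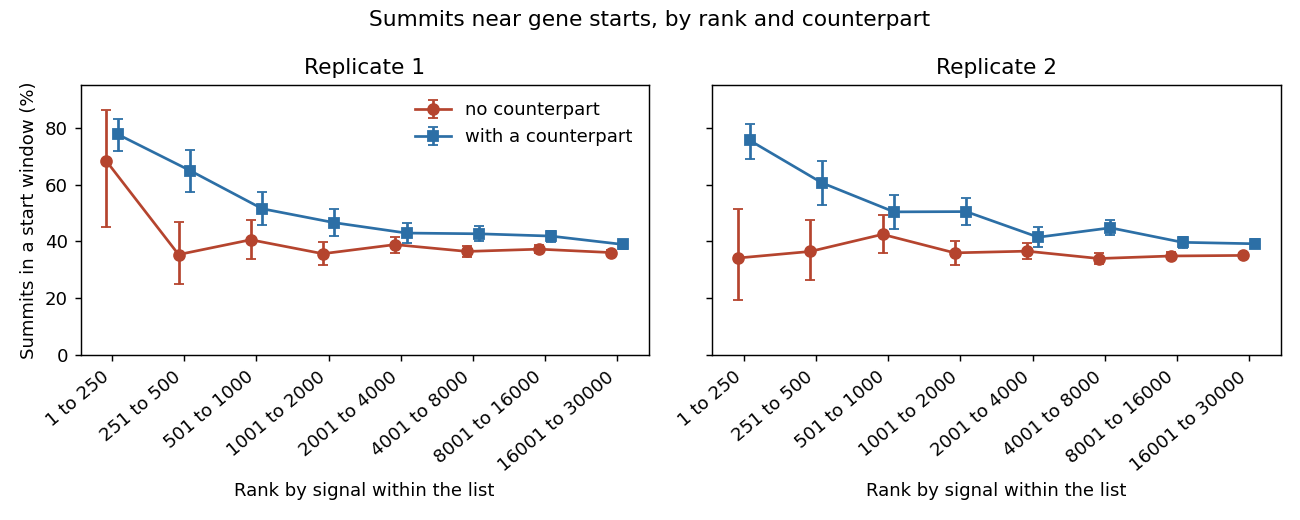
Share of summits in a start window (%) by rank of signal, for regions with no counterpart (circles) and with a counterpart (squares), replicate 1 left and replicate 2 right. Bars are exact 95% intervals. Regions with a counterpart go from 77.6% and 75.5% at ranks 1 to 250 down to 38.96% and 39.2%, and those without stay between 34.01% and 42.5% except the first bin of replicate 1, at 68.2%.

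Coding exons held more of the members than of the rank-matched regions. In replicate 1, 320 member summits lay in a coding exon (32.0%, 29.1 to 34.99), against 19.8% (17.6 to 22.2) of rank-matched regions, 28.3% of the whole list and 24.6% of the genome's bases. In replicate 2 there were 372 (37.2%, 34.2 to 40.3), against 21.7% (19.4 to 24.2) of rank-matched regions and 29.97% of the list. The contrast was smaller within ranks 1001 to 2000 alone. There, replicate 1 had 30.6% of members (26.8 to 34.6) against 25.5% of regions with a counterpart (21.5 to 29.8), and these intervals overlap. Replicate 2 had 37.1% (33 to 41.4) against 25.9% (22.01 to 30.1). Beside rank-matched regions, the space outside genes went the other way, with 32.3% of members against 41.3% in replicate 1, and 27.9% against 39.4% in replicate 2. The lists stood at 31.6% and 30.7% there, near the members of replicate 1. Introns of protein-coding genes held 26.7% of members and 25.98% of rank-matched regions in replicate 1, and 27.6% and 26.7% in replicate 2. In the lists, introns held 30.6% and 30.2%, above the members.

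Small RNA genes, namely those for miRNA, rRNA, snRNA, snoRNA and tRNA, held in their bodies 4 member summits in replicate 1 (0.400%, 0.109 to 1.02), against 39 (3.32%, 2.37 to 4.51) of the rank-matched regions. Replicate 2 had 6 (0.600%, 0.220 to 1.30), against 29 (2.53%, 1.70 to 3.61). The whole lists stood at 0.410% in replicate 1 and 0.403% in replicate 2. Members in 5′ UTRs made up 2.10% in replicate 1 and 1.20% in replicate 2, against 2.21% and 2.71% of rank-matched regions and 1.78% and 1.73% of the lists. Those in 3′ UTRs made up 3.60% and 2.70%, against 2.56% and 2.01% of rank-matched regions and 3.74% and 3.32% of the lists. Median distance from a member's summit to the nearest coding start was 1444 bp in replicate 1 and 1444 bp in replicate 2, against 1054 bp and 1124 bp for rank-matched regions.

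**Figure D3:**
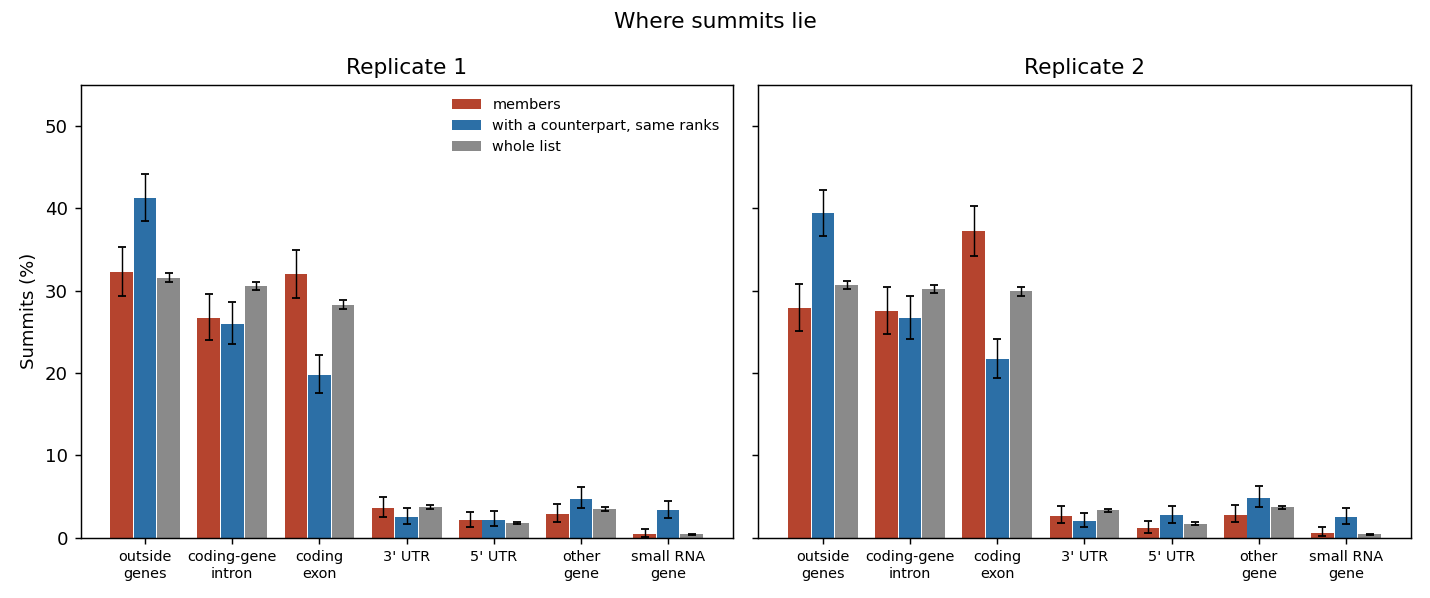
Share of summits (%) in each location class for members, rank-matched regions with a counterpart and the whole list, replicate 1 left and replicate 2 right; bars start at 0 and error bars are exact 95% intervals. Members hold 32.0% and 37.2% in coding exons, against 19.8% and 21.7% for rank-matched regions, and 32.3% and 27.9% outside genes, against 41.3% and 39.4%.

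The members of the replicates were not alike in every class. Replicate 2 had a coding-exon share of 37.2%, against 32.0% in replicate 1, and a share outside genes of 27.9%, against 32.3%, though both pairs of intervals overlap. The whole lists differed in the same direction, with 29.97% of replicate 2 and 28.3% of replicate 1 in coding exons.

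Members were richer in G and C than an ordinary candidate and poorer than rank-matched regions. The median GC content over members of replicate 1 was 38.03% (interval of the median 37.5 to 38.6), against 40.7% (40.4 to 41.2) for rank-matched regions and 36.97% for the whole list. Over members of replicate 2 it was 39.4% (39.1 to 39.9), against 40.96% (40.7 to 41.5) for rank-matched regions and 37.2% for the list. The members' quartiles ran from 34.6% to 42.02% in replicate 1 and from 35.9% to 43.4% in replicate 2, so the sets overlap widely. Within ranks 1001 to 2000 alone, the medians of members and of regions with a counterpart were closer. They were 38.03% and 39.9% in replicate 1, and 39.4% and 39.6% in replicate 2. The member median of replicate 2 was above that of replicate 1.

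**Figure D4:**
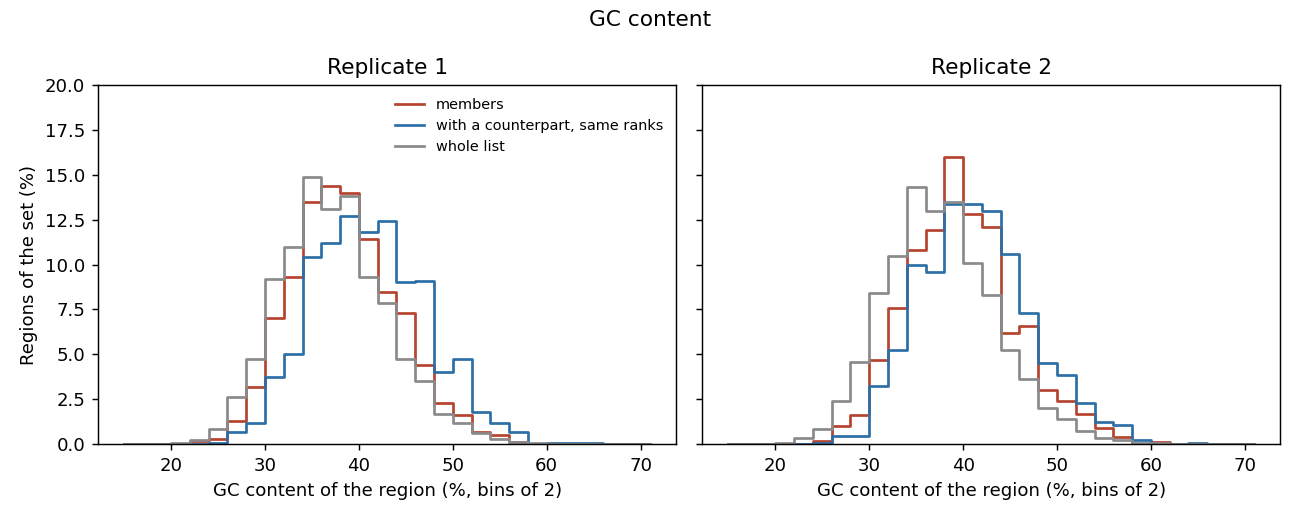
Distribution of GC content (%, bins of 2 percentage points) as a share of each set, for members, rank-matched regions with a counterpart and the whole list, replicate 1 left and replicate 2 right. Member medians of 38.03% and 39.4% lie between those of the whole list (36.97% and 37.2%) and of rank-matched regions (40.7% and 40.96%).

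Members were spread over all 6 chromosomes. Chromosome X held 194 in replicate 1 (19.4%, 16.99 to 21.99) and 188 in replicate 2 (18.8%, 16.4 to 21.4), against 21.5% and 23.5% of the rank-matched regions and 18.8% and 19.1% of the lists. Chromosome V held 16.9% of members in replicate 1 and 18.4% in replicate 2, against 11.6% and 12.6% of rank-matched regions and 18.1% and 18.3% of the lists. On chromosome I were 180 and 188 members, on II 144 and 159, on III 160 and 144, and on IV 153 and 137, replicate 1 first. For chromosome I these are 18% and 18.8% of members, against 18.7% and 17.98% of rank-matched regions. The lists held 16.2% and 16.1% on I, 16.1% and 15.9% on II, 14.7% and 14.4% on III, and 16.2% and 16.1% on IV. The arms, taken as the outer parts of each chromosome cut into 3 equal lengths, held 61.5% of members in replicate 1 and 61.9% in replicate 2, against 63.8% and 63.7% of the lists.

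Members were not richer in repeats than the lists they came from. Soft-masked bases, the bases marked as repeats in the assembly, made up a median of 21.3% of a replicate 1 member and 18.6% of a replicate 2 member, against 25.5% and 24.5% over the lists. The central 50 bases of the summit occurred more than once in the genome for 8 members of replicate 1 and 2 of replicate 2. For rank-matched regions these counts were 18 of 1174 and 17 of 1146. Over the whole lists they were 245 of 30000 (0.817%) and 223 of 30000 (0.743%), so replicate 1 members, at 0.8%, stood near the list.

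For 5 of the 10 motifs, the intervals of members lay below those of rank-matched regions in both replicates, for the B box narrowly so in replicate 1 (0.282 to 1.44, against 1.45 to 3.23). GCGCGC lay within 100 bp of the summit in 2.30% of members in each replicate, against 6.22% of rank-matched regions and 1.99% of the list in replicate 1, and 7.42% and 2.02% in replicate 2. CTGCGTCT was found in 3.20% of replicate 1 members and 2.40% of replicate 2 members, against 6.22% and 7.16% of rank-matched regions and 2.07% and 2.10% of the lists. CACACA was found in 13.1% and 13.4% of members, against 19.3% and 18.9% of rank-matched regions and 10.9% of each list. GAGAGA was found in 17% and 17.7% of members, against 23.7% and 26.5% of rank-matched regions and 13.6% and 13.8% of the lists. The B box, an internal promoter element of tRNA genes searched as GGTTCGA, 2 free bases and CC, was in 7 members of replicate 1 (0.700%) and 2 of replicate 2 (0.200%), against 2.21% and 2.97% of rank-matched regions. The lists had the B box in 0.64% and 0.53%. Only this exact form was searched, so close variants were not counted. The printed window at the tRNA gene in inft-2 holds such a variant on the minus strand, 1 base away from the form searched.

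The nuclear receptor word AGGTCA was at 68 members of replicate 1 (6.80%, 5.32 to 8.54) and 54 of replicate 2 (5.40%, 4.08 to 6.99). In rank-matched regions it was in 6.64% and 6.37%, and in the lists in 5.61% and 5.40%, so these intervals overlap. Its longer form AAGGTCA, which contains AGGTCA, was in 1.90% and 1.40% of members, against 2.64% and 1.75% of rank-matched regions. TATAAA was in 15.4% of replicate 1 members and 13.3% of replicate 2 members. Rank-matched regions had it in 13.6% and 13.1%, and the lists in 18.7% and 17.8%. TTTTTTTT was in 14.1% and 10.5% of members, against 12.2% and 11.1% of rank-matched regions and 17.4% and 16.6% of the lists. The splice-acceptor-like TTTCAG was in 30.5% and 29.2% of members. For TTTCAG the rank-matched regions stood at 25.2% (22.8 to 27.8) and 21.6% (19.3 to 24.1) and the lists at 33.1% and 32.5%, and the intervals of members (27.7 to 33.5) and rank-matched regions meet in replicate 1. These are matches of letters in a window.

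The rule fixes a gap between a member and the other list, and its size was close to that of any unmatched region. The gap between the edges was 860 bp at the median in replicate 1 and 892 bp in replicate 2, and it was 200 bp or less for 146 members of replicate 1 (14.6%, 12.5 to 16.9) and 145 of replicate 2 (14.5%, 12.4 to 16.8). Over all regions without a counterpart the medians were 966 and 957 bp, and 13.7% and 13.6% had a gap of 200 bp or less. Within 1000 bp of a thresholded peak were 11 members of replicate 1 and 12 of replicate 2. The member sets themselves came within 1000 bp of each other at 34 members of replicate 1 and 32 of replicate 2. No share over all regions is given beside these counts of neighbours, so they cannot be called many or few.

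The 20 strongest members of each replicate are described singly below. In replicate 1, 14 of the 20 lay in a start window and 2 in coding exons, and in replicate 2, 8 lay in a start window and 7 in coding exons. All 20 of replicate 2 reached 2 in −log10 q, as did 10 of the 20 in replicate 1. Gaps to the other list ran from 14 to 11415 bp in replicate 1 and from 50 to 3402 bp in replicate 2. Whether the replicates differ in these small counts was not tested. Among the best members, as many as the thresholded peaks, start windows held 41.8% (35.6 to 48.2) in replicate 1 and 38.6% (32.5 to 44.9) in replicate 2. Coding exons held 30.5% (24.9 to 36.7) and 34.9% (29.03 to 41.2) of them, so both pairs of intervals overlap.

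The strongest member of replicate 1 lay in an intron of pqn-41, which encodes a glutamine- and asparagine-rich protein (chrIII:1921173-1921548, signal 27.8). A region of replicate 2 lay 41 bp from its edge, at rank 1210 and signal 11.3. The member 187 bp upstream of F13D11.14, a non-coding RNA gene on X, had a signal of 25.7, and the nearest replicate 2 region, 120 bp away, ranked 18708. At the microRNA gene cel-mir-53, of the mir-51 family, the summit lay 72 bp upstream (signal 24.2, rank 117). This region overlapped a pooled candidate of rank 307, not far below the thresholded peaks.

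Promoters of coding genes followed in replicate 1. A summit lay 421 bp upstream of ntl-2, a subunit of the CCR4-NOT deadenylase complex (chrII:4376698-4377073, signal 24.1), with the nearest replicate 2 region 2041 bp away. Others lay 464 bp upstream of W08E12.7 (signal 23.1), 186 bp upstream of Y39A1A.22 (signal 21.4) and 48 bp upstream of W03F8.4 (signal 20.3). The start window of Y39A1A.22 is shared with Y39A1A.21 and with mrpl-12, a mitochondrial ribosomal protein gene, so 1 region stands for 3 genes. At sys-1, which encodes a beta-catenin of the Wnt pathway, the summit was 205 bp upstream (signal 19.4). A region between genes, 248 bp upstream of sna-3 and 344 bp upstream of the small-subunit ribosomal protein gene rps-3, had a signal of 19.8.

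Away from promoters, replicate 1 had a member in an intron of gsa-1, the Gs alpha subunit gene (signal 20.3, 1431 bp past the start), and 1 in an intron of inso-1 (signal 19.7). A member 66 bp upstream of the non-coding M03A8.6 lay in an intron of atg-2, an autophagy gene (signal 19.6). A summit 1526 bp upstream of the 5S ribosomal RNA gene rrn-4.15 (signal 19.2) was 11415 bp from any replicate 2 region. The remaining members of the 20 lay nearest to F29F11.12, fbxa-220, F26F12.11, F08A8.10, R03E9.6 and 21ur-13313, with signals from 19.1 to 21.5.

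In replicate 2 the strongest member lay in a coding exon of ztf-29, a zinc finger gene, 247 bp past the start (chrIII:11561211-11561586, signal 24.6, rank 54). The nearest region of replicate 1, 426 bp away, ranked 10221. The next lay in a tRNA gene, WBGene00014331, within inft-2 (chrV:13003342-13003717, signal 20.7, rank 88), 50 bp past the tRNA start, and the nearest replicate 1 region was 1745 bp away. Intronic members followed in flcn-1, the folliculin gene (signal 20.3), and ppfr-1, a protein phosphatase regulatory subunit gene (signal 20.01, with a replicate 1 region 53 bp away).

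Gene starts came next in replicate 2. They were 349 bp upstream of R04E5.8 (signal 19.7), 145 bp upstream of the tRNA gene WBGene00014326 (signal 19.6), 327 bp upstream of F17E5.2 (signal 19.1) and 159 bp upstream of set-20, a SET domain gene (signal 17.9). R04E5.8, F17E5.2 and set-20 are on X. Coding exons of magu-2 (signal 19.1), T15B12.2 (signal 18.1), sup-37 (signal 17.9), frm-2, a FERM domain gene (signal 17.9), and F16G10.3 (signal 17.4) each held a member, and another coding-exon member lay where T28F4.4 and T28F4.5 overlap (signal 17.6). The magu-2 and sup-37 members lie close together on chromosome V, at chrV:8792930-8793305 and chrV:8791788-8792163. Introns of miz-1 (signal 19.2), dys-1, the dystrophin gene (signal 17.7), Y39B6A.7 (signal 17.3) and seu-1 (signal 17.2) held the others inside genes. One stood 3881 bp upstream of cel-mir-231 (signal 18.5), outside genes.

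A member lay in the start window of 560 genes in replicate 1, out of 15481 genes with any region of that list there (3.62%), and of 548 out of 15040 in replicate 2 (3.64%). The sets had 7 genes in common, which is 1.25% of the genes of replicate 1 and 1.28% of those of replicate 2. Since members of one replicate overlap nothing in the other list, the rule itself keeps this overlap small. By gene body, 646 members of replicate 1 lay in 633 protein-coding genes and 691 of replicate 2 in 676, and 57 genes were in both, 9.005% and 8.43% of them. A share over all regions is not given beside these gene-body counts.

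At bet-2, which encodes a bromodomain protein of the BET family, the 2 members lay side by side on X. The replicate 2 member (chrX:10568485-10568860) had a signal of 19.4 at rank 128 with its summit 600 bp upstream, and the replicate 1 member (chrX:10568910-10569285) a signal of 12.5 at rank 1631 with its summit 175 bp upstream. Their edges were 50 bp apart, so the gene had a strong region in both replicates and each was counted as unmatched. The same arrangement, with a gap of 22 bp, was found at C32A3.4 (signal 12.4, rank 1700 in replicate 1, and signal 13.03, rank 594 in replicate 2).

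Gaps at the other 5 common genes were longer. They were 407 bp at the collagen gene col-63, 261 bp at the piRNA gene 21ur-15523, 465 bp at M03A8.6 and 561 bp at the snoRNA gene Y39A1A.30. At M03F4.13 the nearest region of the other list was 219 bp from the replicate 1 member and 232 bp from the replicate 2 member. The replicate 1 region at M03A8.6 ranked 219 and the replicate 2 region 1389, while at col-63 the ranks were 2019 and 1009.

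Among gene bodies, T28B11.1 held the most members, with 3 in introns in replicate 1 (signals 13.3, 12.3 and 11.9) and 2 in replicate 2 (signals 12.9 and 10.4). Replicate 2 placed 3 members in lit-1, which encodes a Nemo-like kinase of the Wnt pathway, with signals of 12.2, 12.1 and 11.1. It also placed 3 in ercc-1, a DNA excision repair gene, with signals of 10.98, 10.8 and 10.4. Most hosts had 1 member, namely 604 of 633 in replicate 1 and 634 of 676 in replicate 2.

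Counts below are of genes with a member in the start window, out of the genes of the class with any region of that replicate there. Over all genes the share was 3.62% in replicate 1 and 3.64% in replicate 2 for members, and 6.81% and 7.17% for rank-matched regions. Neighbouring genes can share 1 region, and no share was tested. Cytoplasmic ribosomal protein genes had a member at 6 of 62 in replicate 1 (9.68%), above the share over all genes, and at 2 of 58 in replicate 2 (3.45%), near it. Rank-matched regions reached 20 (32.3%) and 21 (36.2%). In replicate 1 these were led by rps-3 (signal 19.8), rps-23 (signal 17.2, 292 bp upstream), rpl-4 (signal 14.3, 365 bp upstream), rps-0 (signal 13.8) and rpl-11.2 (signal 13.5, in a coding exon). In replicate 2 they were rps-22 (signal 12.05, 108 bp upstream) and rpl-27 (signal 10.2, 68 bp upstream). Counting every member for its nearest start alone, at any distance, gave 3 ribosomal protein genes in replicate 1 and 3 in replicate 2.

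Core histone genes, taken as all his- symbols, had a member at 0 of 29 in replicate 1 and 1 of 28 in replicate 2, his-8 (signal 15.5). Counts for rank-matched regions were 9 and 14. The his-8 region lay 77 bp from a replicate 1 region. Among chaperones, a member lay 262 bp upstream of cct-5, a subunit of the cytosolic chaperonin, and 110 bp upstream of hsp-4, the BiP chaperone of the endoplasmic reticulum, in replicate 1 (2 of 30), and 180 bp upstream of dnj-12, a DnaJ co-chaperone, in replicate 2 (1 of 27). Counts for rank-matched regions were 5 and 8. Translation factors had 2 of 34 in replicate 1, eif-2Bgamma and eif-3.J, and 1 of 34 in replicate 2, eef-1A.1, against 5 in each replicate.

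Genes for small structural RNAs had members at or above the share over all genes, and rank-matched regions well above theirs. Of tRNA genes, 24 of 333 had a member in replicate 1 (7.21%) and 13 of 336 in replicate 2 (3.87%), against 67 (20.1%) and 68 (20.2%) with a rank-matched region. The strongest at tRNA genes were WBGene00009527 on X in replicate 1 (signal 18.3, 76 bp past the start) and WBGene00014331 on V in replicate 2. Of snoRNA genes, 11 of 192 (5.73%) and 11 of 188 (5.85%) had a member, against 53 (27.6%) and 57 (30.3%). Y39A1A.30 was among them in both replicates. Of snRNA genes, 2 of 53 had a member in each, against 11 in replicate 1 and 8 in replicate 2.

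MicroRNA genes had a member at 7 of 113 in replicate 1 (6.19%) and 8 of 130 in replicate 2 (6.15%). Rank-matched regions reached 22 (19.5%) and 21 (16.2%). After cel-mir-53, the strongest in replicate 1 were at cel-mir-798 (signal 14.3), cel-mir-8197 (signal 14.1) and cel-mir-49 (signal 13.8). Replicate 2 had cel-mir-5549 (signal 13.2), cel-mir-62 (signal 12.9) and cel-mir-1019 (signal 12).

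Pseudogenes had a member at 17 of 500 (3.40%) in replicate 1 and 21 of 526 (3.99%) in replicate 2, near the share over all genes, against 9 (1.80%) and 13 (2.47%) with a rank-matched region. The piRNA genes, tiny germline small RNA genes packed in clusters on chromosome IV, had a member at 100 of 3549 (2.82%) and 64 of 3393 (1.89%), below the share over all genes, against 56 (1.58%) and 68 (2.004%). The members behind these counts were 36 regions in replicate 1, of which 26 lay on IV, and 25 in replicate 2, of which 16 did. Counting every member for its nearest start alone, at any distance, gave 39 and 36 piRNA genes. Chemoreceptor genes, expressed in sensory neurons, were also below it, with a member at 6 of 315 (1.90%) and 9 of 293 (3.07%), against 6 with a rank-matched region in each replicate.

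Nuclear hormone receptor genes, the family of the tagged protein, had a member at 4 of 91 in replicate 1 (4.4%) and 5 of 91 in replicate 2 (5.49%), against 3 and 5 with a rank-matched region. In replicate 1 they were nhr-22 (signal 13.9), nhr-258 (signal 12.4, 25 bp upstream), nhr-186 (signal 12.2) and nhr-71 (signal 11.9). Replicate 2 had nhr-218 (signal 13.3), nhr-4 (signal 12.7, 260 bp upstream), nhr-162 (signal 12.1, 188 bp upstream), nhr-48 (signal 10.8) and nhr-291 (signal 10.2). The best rank among these regions was 540, at nhr-218.

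**Figure D5:**
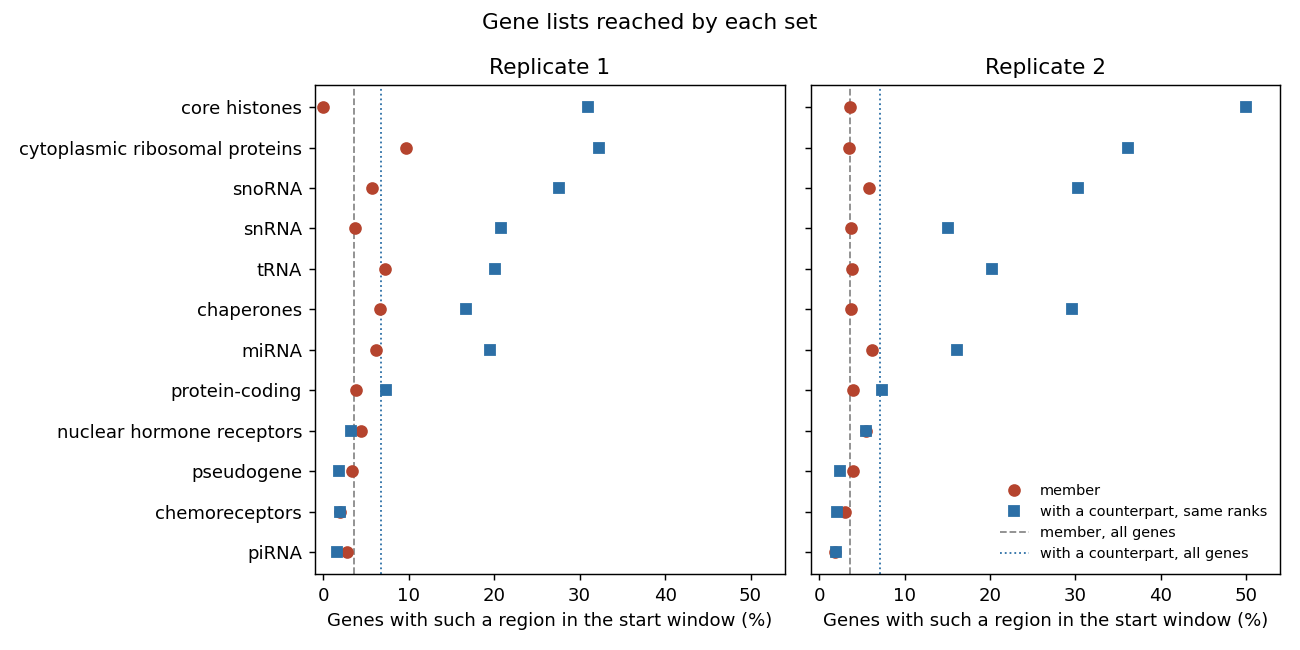
Share of genes (%) with a region of the given kind in the start window, out of genes of the class with any region of that replicate there; circles are members, squares rank-matched regions with a counterpart, and the dashed and dotted lines their shares over all genes (3.62% and 3.64% for members, 6.81% and 7.17% for rank-matched regions). Histone, ribosomal protein, snoRNA, snRNA and tRNA genes have squares well to the right of circles in both replicates, and circles at pseudogenes lie near the dashed line.

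Tissue and developmental lists held few members each. The cuticle collagen list took all col-, dpy-, rol-, sqt- and bli- symbols, so it is not limited to collagens. It had 1 of 74 in replicate 1, col-63, and 5 of 62 in replicate 2 (col-161, col-65, col-46, col-63 and col-120). Cell cycle genes had 3 of 26 in replicate 1 and 1 of 20 in replicate 2. In replicate 1 these were the cyclin-dependent kinase genes cdk-1 (signal 13.3, 672 bp upstream), cdk-8 (signal 13.2, 730 bp) and cdk-4 (signal 11.9, 468 bp). In replicate 2 it was cdc-7 (signal 12.8, 902 bp upstream). Each of these members lay nearer to the start of another gene, at 393, 237, 284 and 122 bp in the same order. Germline and maternal genes had the Nanos-family genes nos-3 (signal 12.6, 28 bp upstream) and nos-2 (signal 12.3) in replicate 1 and gld-3 (signal 13.5) in replicate 2. Muscle genes had none of 15 in replicate 1 and the actin genes act-1 (signal 14.4) and act-4 (signal 12.9) of 19 in replicate 2.

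Detoxification genes differed between the sets by counts of this size too. UDP-glucuronosyltransferases had 3 of 18 in replicate 1 (ugt-46, ugt-66 and ugt-4, signals 14.6 to 12.6) and 0 of 17 in replicate 2, and cytochrome P450 genes had 2 of 27 and 1 of 18. Homeobox genes had ceh-54 and ceh-33 of 24 in replicate 1 and none of 35 in replicate 2. The members at ugt-46 and ugt-66 lay nearer to other starts, at 50 and 397 bp. Counting every member for its nearest start at any distance gave 1 UDP-glucuronosyltransferase gene in each replicate. It gave 3 and 4 cytochrome P450 genes, and 6 and 3 homeobox genes, so these differences depended on the way of counting. Intestine genes and glutathione S-transferases had no member in the start window in either replicate. Counts of 0 to 5 genes come from as few regions, and 33 gene lists were counted.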

How the data were processed

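ChIP-seq region lists of 2 biological replicates of 1 group were used. Per the description files, the authors derived the candidates of each replicate from that replicate's alignments with a control. The aligner, peak caller, versions and threshold are not given in the sources used here. In the deposited lists, signal is the authors' value per region on an unstated scale, and −log10 q is the authors' capped value. Read counts are not in these files, so depth is unknown.

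Members were taken on ce11 as described with the first values. The members and gene lists were chosen with earlier results of these data known, and the comparison over the members' rank span and the rank bins were added after seeing the data. Gene lists were taken by symbol or biotype, so a list named for a family can hold other genes that share its symbols. Genes came from Ensembl release 115 for WBcel235, the assembly called ce11 (46890 genes), and sequence from the RefSeq copy, with none printed from chromosome I. A summit took the first class it fell in, in the order small RNA gene, coding exon, 5′ UTR, 3′ UTR, intron, other gene, outside genes. Named genes were the nearest starts of the 20 strongest members of each replicate, up to 5 genes with a member per list, genes with a member of both sets, nhr-12, unc-119 and members in thresholded peaks. Other names are those of the hosts of such members or of genes with 3 members. Shares have exact Clopper-Pearson 95% intervals and medians order-statistic intervals. No p-values were computed. The ce10 lists served as an alternative. Work was done in Python 3.11.15 with pandas 2.3.3, numpy 2.4.6, scipy 1.17.1 and matplotlib 3.10.9, and the overlap code was tested on simulated regions.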

Additional observations from a re-analysis of the deposited data

How the results depend on the processing

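Of 94 values recomputed under 12 alternatives, 67 stayed within the limit and 27 moved, and none had a test that could change side. Keeping only regions with −log10 q of at least 2 left 10 members in replicate 1 and 96 in replicate 2. It gave, for replicate 1, 80% in start windows, 10% in coding exons, 60% outside genes, 10% on X and a GC content of 46.01%, and for replicate 2 23.96% on X and a GC content of 40.7%. The best members, as many as the thresholded peaks, of replicate 1 had 41.8% in start windows and 35.7% outside genes, and those of replicate 2 a GC content of 40.4%. Members within the best 1000 of replicate 1 had 41.2% in start windows, and the best 500 of replicate 2 24.8% outside genes. When a counterpart had to cover 50% of the width, GC content was 38.8% in replicate 1, and replicate 2 had 41.1% in start windows, 33.6% in coding exons and 21.8% on X. In the narrower start window the shares were 25.7% and 21.4%, and at protein-coding starts 25.3% and 24.2%. The window of 50 bases on each side of the summit had a GC content of 38.6% and 40.6%. With nearest starts at any distance, ribosomal protein genes of replicate 1 numbered 3, and piRNA genes 39 and 36. Some counts by nearest start were taken as within the limit though they changed. The tRNA genes went from 24 to 17 in replicate 1 and from 13 to 9 in replicate 2. The snoRNA genes went from 11 to 16 and from 11 to 15, and ribosomal protein genes of replicate 2 from 2 to 3. On ce10, 19961 and 19980 regions had no counterpart. The cause of these moves was not tested.

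Leaving out a replicate was not run, since the rule needs both lists. No paired analysis was possible because both replicates form 1 group. Depth is unknown, so whether a missing counterpart reflects the depth of a library could not be measured, and each set rests on 1 library.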

Other observations

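The gene of the tagged receptor lay in a long stretch with no candidate. Around nhr-12 (chrV:10082133-10084049), neither replicate listed a region within 10 kb, and the stretch free of regions was 59372 bp in replicate 1, 60575 bp in replicate 2 and 62599 bp in the pooled list. The median such stretch was 1789, 1770 and 1875 bp, and 5, 6 and 5 stretches were at least as long. Around unc-119 (chrIII:10902641-10908935), the mutated marker gene, 6 regions of replicate 1 and 9 of replicate 2 lay within 10 kb, none of them members.

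Members of replicate 1 that overlapped no pooled candidate included the region at rpl-11.2, and those of replicate 2 included the regions at rps-22, cel-mir-62 and cel-mir-1019.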
